A study of Schizosaccharomyces pombe with 2 samples.

Results

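Mitochondrial ribosomal proteins, made from nuclear genes, build the ribosome that translates the few mRNAs of the mitochondrial genome, which encode subunits of the respiratory chain and of ATP synthase and a ribosomal protein. The proteins belong to a large subunit, which joins amino acids, and a small subunit, which reads the mRNA. In fission yeast, as in other eukaryotes, their mRNAs are cleaved and polyadenylated in the nucleus like any other coding transcript, and Seb1, a relative of the budding yeast RNA-binding protein Nrd1, acts in that 3′ end processing.

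The members are the 59 coding genes of chromosomes I to III, of 5113 in all, whose RefSeq symbol is mrpl, mrps, mrp or rsm followed by digits. By their annotated products, or by symbol where the product names no subunit (mrpl50 and mrps26), 35 encode large-subunit and 23 small-subunit proteins. The remaining member, rsm1, carries such a symbol but encodes an RNA export factor. It was kept in the counts, passed the abundance rule in neither direction and had a higher distal share in nmt1-SEB1 (82.1% against 13.6%, as defined further on). A further 20 coding genes have a mitoribosomal product under another kind of symbol and were described separately.

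Reads that mark poly(A) sites were counted in *Schizosaccharomyces pombe*, with 1 library from a strain whose seb1 gene is under the nmt1 promoter (nmt1-SEB1) and another from a wild-type strain. The medium was minimal and contained thiamine for both strains, and thiamine turns the nmt1 promoter down. The sample labels describe nmt1-SEB1 as a knock-out of seb1 and the series design speaks of a knockdown, so the strain is named by its construct. Each group has this 1 library and no replicate here, so every value compares 2 libraries, not the conditions.

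The libraries held 3376142 (nmt1-SEB1) and 2702105 (wild type) reads, and 98.4% and 99.7% of the nuclear reads were assigned to genes. The level of a gene is its reads per 1000000 gene-assigned reads (RPM), so that 1 read is worth 0.301 RPM in nmt1-SEB1 against 0.372 RPM in wild type. Each transcript gives its reads at the 3′ end, so levels were not divided by gene length. seb1 itself had 826 reads in nmt1-SEB1 against 1848 in wild type, a ratio of 0.362 (95% interval 0.333 to 0.393).

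Sequences at the poly(A) sites of 7 members are shown, as examples from the named genes whose site use is described further on. Distal sites held a higher share in nmt1-SEB1 in rsm19, rsm10, rsm23, mrpl8 and mrpl22, the 5 with the largest differences among members with 100 or more reads per library, and a lower one in mrp17 and mrp2. Some members with fewer reads had larger differences. Each is 30 bases of the RefSeq genome of the files' nuclear coordinates (ASM294v2), on the strand of the gene. Capitals mark the poly(A) signal AATAAA or its variant AATGAA before a site, or TGTA after a site. TGTA also lay within 100 nt after the distal sites of rsm23, mrpl8, mrp17 and mrp2, which is not printed. The TGTA printed for mrpl22 lies past both of its sites, 88 nt after the proximal and 28 nt after the distal one.
rsm19 proximal site, 30 bases up to it, I:385523-385552, minus strand: gcttttaatgacagcacttcttccaatgga
rsm19 proximal site, 30 bases after it, I:385493-385522, minus strand: TGTActtgcacgtataaaTGTATGTAtgaa
rsm19 distal site, 30 bases up to it, I:384700-384729, minus strand: gagagatatttatcatcgtaacatctacca
rsm10 proximal site, 30 bases around the first TGTA after it, II:3872071-3872100, plus strand: cgtacaatttgcgTGTAgtttcaatcgtac
rsm10 distal site, 30 bases up to it, II:3872792-3872821, plus strand: aggggtcAATAAAcaaaccagttaaacata
rsm23 proximal site, 30 bases around the first TGTA after it, II:2066272-2066301, minus strand: gtgattctactcgTGTAatgttattagttt
mrpl8 proximal site, 30 bases up to it, with no TGTA in the 100 bases that follow, II:340754-340783, minus strand: atacactttatttacattctcgttttctaa
mrpl22 proximal site, 30 bases around the first TGTA after it, III:2028125-2028154, minus strand: aacgccataatttTGTAtttacctctatgg
mrp17 proximal site, 30 bases up to it, I:1653233-1653262, minus strand: AATAAAaatattcgcagagctgtccaatta
mrp17 distal site, 30 bases up to it, I:1651765-1651794, minus strand: atatggctcAATAAAagtgttagaaatgga
mrp2 proximal site, 30 bases up to it, I:2505305-2505334, minus strand: cgccgtttaAATGAAgtacaattatttgca

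The levels of the members ran from a few reads to well over 1000. In wild type the lowest was 0.744 RPM, the median 29.4 and the highest 508, and in nmt1-SEB1 they were 1.21, 46.1 and 439 RPM. In wild type the order was led by mrps9 (small-subunit protein), with 508 RPM, and mrp20 (uL23m, large subunit), with 445 RPM. They were followed by mrp2 (uS14m, small subunit), with 177 RPM, mrpl12 (bL12m, large subunit), with 170 RPM, and mrpl19 (uL11m, large subunit), with 166 RPM. mrp2, mrpl12 and mrpl19 rest on 475, 457 and 447 wild-type reads and do not stand apart from each other beyond counting error.

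The order at the top was another one in nmt1-SEB1. mrpl19 came first there with 439 RPM (1456 reads), followed by mrps9 with 283 RPM (938 reads) and mrpl12 with 251 RPM (832 reads), while mrp20 had 212 RPM (704 reads) and mrp2 89.8 RPM (298 reads). At the other end 3 members had fewer than 20 reads over both libraries and were given no ratio. They were mrpl27 (9 reads in nmt1-SEB1, 2 in wild type), mrpl40 (9 and 7) and mrpl20 (4 and 8), all of the large subunit.

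**Figure D1:**
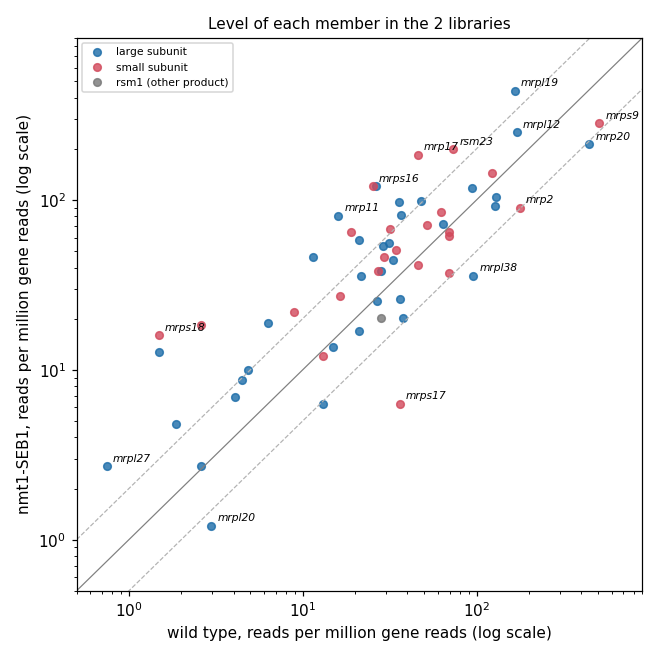
Level of each of the 59 members, with wild type on the x axis and nmt1-SEB1 on the y axis, both in RPM on log scales; the solid line marks equal levels and the dashed lines 2-fold differences. mrpl19 lies above the upper dashed line at 166 RPM in wild type and 439 in nmt1-SEB1, mrp20 lies below the lower one at 445 and 212, and the 4 members under 2 RPM in wild type rest on 5 reads or fewer there.

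More members were higher than lower in nmt1-SEB1 when scaled by gene reads. A member was counted as higher or lower when the ratio of its RPM values was at least 2 or at most 0.5 and its exact 95% counting interval left out 1. Of the 56 members with 20 or more reads, 19 (33.9%) were higher, where 26.0% of the 4702 coding genes tested were. In the other direction 4 members (7.14%) were lower, where 17.0% of coding genes were, and 33 members passed in neither direction. The median log2 ratio was 0.56 over the members and 0.20 over all coding genes, a difference of 0.36. With TMM scaling (a trimmed mean of ratios), which moved every log2 ratio down by 0.66, the split of the members turned to 9 higher (16.1%, where 14.1% of coding genes were) and 11 lower (19.6%, where 32.5% were) and their median to -0.11. With median-of-ratios scaling, a shift of 0.72, it turned to 9 and 13 (16.1% and 23.2%, where coding genes had 13.3% and 34.0%) with a median of -0.16. The difference of 0.36 from the coding median does not depend on the scaling. With the window cut at 200 nt past the gene end the share of higher members was no longer above that of coding genes: 12 of 53 members (22.6%) were higher, where 24.3% of coding genes were. In total RNA of a culture, fewer cells with a transcript and less of it per cell cannot be told apart.

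As one sum, the members took 4077 RPM in nmt1-SEB1 against 3379 in wild type, a ratio of 1.21 (1.17 to 1.24). Both mrps9 and mrp20 weigh on that sum: without mrps9 the ratio was 1.32, and without mrp20 it was also 1.32. Over all coding genes the corresponding ratio was 0.885. The 139 genes for cytosolic ribosomal proteins, which build the ribosome outside mitochondria, had 23 higher and 67 lower members with a median log2 ratio of -0.87.

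The subunits had similar shares of higher members when scaled by gene reads. Of the 32 large-subunit genes tested, 11 (34.4%) were higher and 3 (9.38%) lower. Their median log2 ratio was 0.74 and the ratio of the sums 1.28 (1.23 to 1.32). Of the 23 small-subunit genes tested, 8 (34.8%) were higher and 1 (4.35%) lower. Their median was 0.50 and the ratio of the sums 1.14 (1.09 to 1.18). Among coding genes 26.0% were higher and 17.0% lower. With TMM scaling 4 large-subunit (12.5%) and 5 small-subunit genes (21.7%) were higher, where 14.1% of coding genes were. The medians were then 0.08 and -0.17. With the window cut at 200 nt past the gene end, 8 of 30 (26.7%) and 4 of 22 (18.2%) were higher, where 24.3% of coding genes were. The difference between the subunits was not tested.

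Among large-subunit genes with 100 or more reads, 6 were named for a higher level. mrp11 (uL10m, chromosome I, 389453 to 390520, plus strand) had 268 reads in nmt1-SEB1 against 43 in wild type, or 80.7 against 16.0 RPM, a ratio of 5.05 (3.65 to 7.14). mrpl9 (uL3m, chromosome I, 2701420 to 2703811, minus strand) had 399 and 71 reads, or 120 against 26.4 RPM, a ratio of 4.55 (3.53 to 5.95). Most of its nmt1-SEB1 reads ended far past its largest wild-type site, as given further on. In bacteria uL10 anchors the stalk that recruits translation factors, and uL3 is a core protein of the large subunit. mrpl32 (bL32m) had 154 and 31 reads, a ratio of 4.02 (2.72 to 6.13), but 87.7% of its reads in nmt1-SEB1, against 35.5% in wild type, ended before the stop codon. With only the reads past the stop codon its log2 ratio was -0.36, so its call rests on ends inside the coding region.

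The other 3 lay between 2 and 3. mrpl51 (mL43) had 193 and 57 reads, a ratio of 2.74 (2.03 to 3.75). mrp49 (mL61) had 321 and 96 reads, a ratio of 2.71 (2.15 to 3.44). mrpl19 (uL11m, chromosome I, 3205962 to 3206540, minus strand) had 1456 and 447 reads, a ratio of 2.64 (2.37 to 2.94), the narrowest interval among the higher members. All 3 of these lost the call under TMM and median-of-ratios scaling.

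Among small-subunit genes, 4 were named for a higher level. mrps16 (chromosome II, 555825 to 557248, plus strand) had 399 reads in nmt1-SEB1 against 68 in wild type, a ratio of 4.75 (3.67 to 6.24). Most of its nmt1-SEB1 reads lay far past the annotated gene end: with a limit of 500 nt past that end its log2 ratio was -0.083, and with 200 nt it was near 0 (0.0037). mrp17 (bS6m, chromosome I, 1650923 to 1653856, minus strand) had 613 and 123 reads, or 185 against 45.7 RPM, a ratio of 4.04 (3.32 to 4.94). This gene is also the clearest exception in site use, as given further on.

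rsm18 (bS18m) had 214 and 51 reads, a ratio of 3.40 (2.49 to 4.71), and its log2 ratio was 0.36, without a call, with a limit of 200 nt past the gene end. rsm23 (mS29, chromosome II, 2066187 to 2067990, minus strand) had 659 and 198 reads, a ratio of 2.70 (2.30 to 3.18), and lost the call under TMM and median-of-ratios scaling. The ratios of the highest 3 members overall were wider. These were mrps18 (53 and 4 reads, ratio 10.7, interval 3.95 to 40.8), mrpl4 (42 and 4 reads, 8.51, 3.09 to 32.7) and mrp4 (61 and 7 reads, 7.06, 3.23 to 18.3), which fall outside the rule for named genes and were chosen after their values were seen.

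The members that were lower in nmt1-SEB1 included one of the 2 most abundant ones. mrp20 (uL23m, chromosome I, 402886 to 403862, plus strand) had 704 reads in nmt1-SEB1 against 1196 in wild type, or 212 against 445 RPM, a ratio of 0.477 (0.434 to 0.524). mrpl38 (annotated as a putative large-subunit protein) had 119 and 257 reads, a ratio of 0.375 (0.299 to 0.468). mrps17 (uS17m, an RNA-binding protein of the small subunit) had 21 and 97 reads, a ratio of 0.175 (0.104 to 0.283) and the lowest of all members.

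The fourth, mrpl50, had 21 and 35 reads (0.486, 0.269 to 0.859). mrps9 (0.556, 0.511 to 0.605) and mrp2 (0.508, 0.438 to 0.589) came close to the limit of 0.5 without passing it. They passed it under TMM scaling, with log2 ratios of -1.51 and -1.64. mrp20 just missed it when lncRNA annotations were ignored (log2 ratio -0.98). Across the 56 members, a lower wild-type level went with a higher ratio (Spearman's rho -0.53, Pearson's r -0.58), a description only, since both measures share the wild-type reads.

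**Figure D2:**
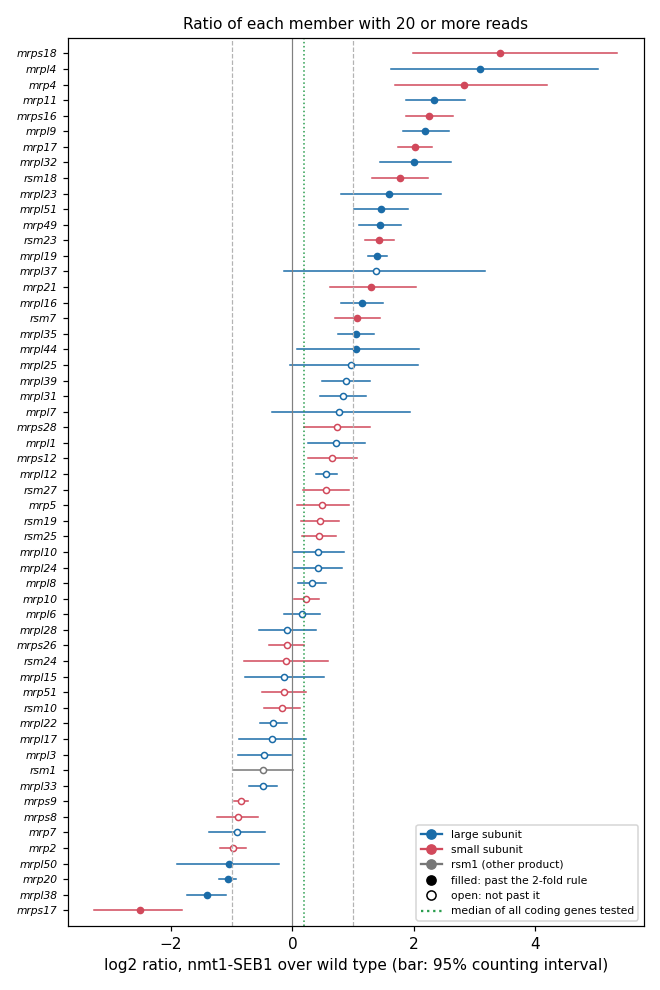
log2 ratio of nmt1-SEB1 over wild type for the 56 members with 20 or more reads, coloured by subunit, each with its exact 95% counting interval; filled points passed the 2-fold rule, dashed lines mark 2-fold and the dotted line the median of all coding genes, 0.20. The values run from -2.51 (mrps17) to 3.42 (mrps18), with 33 intervals wholly above 0 and 11 wholly below.

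Where the reads ended was compared within each gene, so scaling between the libraries does not enter. Reads past the stop codon, up to 1000 nt beyond the annotated gene end or as far as the next gene on that strand, were gathered into clusters, and the 2 with the largest mean share gave a proximal and a distal site. The distal share is the share of this pair's reads that lay in the distal cluster. Fisher's exact test, two-sided, compared the shares, with Benjamini-Hochberg adjustment over the 2943 coding genes tested. A gene was called at an adjusted p under 0.05 and shares at least 10 percentage points apart.

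The distal site was used more in nmt1-SEB1 in 18 of the members tested. They made up 54.5% of the 33 members tested, where 67.4% of coding genes had a higher distal share. The 33 include mrpl20, most of whose window reads were assigned to a downstream gene, as given further on. A lower distal share was found in 3 members (9.09%), where 3.98% of coding genes had one, and 12 passed in neither direction. The median distal share of the members was 75.6% in nmt1-SEB1 against 41.5% in wild type. Over all coding genes the medians were 65.3% and 16.9%. The median difference was 18.8 points in the members and 25.5 in coding genes. When 100 reads were asked of the pair in each library, 9 members were left, with a median difference of 6.58 points. Of these, 4 (44.4%) were higher and 1 (11.1%) lower. Coding genes kept a median of 22.5 points, with 70.3% higher and 3.02% lower. With the pair chosen on wild type alone the members were close to coding genes: 13 of 28 (46.4%) were higher, where 48.6% of coding genes were, and the medians were 12.7 and 13.6 points.

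In rsm19 (uS19m, a small-subunit protein, chromosome I, 384886 to 386170, minus strand) the distal site lay 1055 nt past the stop codon, beyond the annotated end at 869 nt, and the proximal site at 232 nt. It took 112 of the 129 reads of the pair in nmt1-SEB1 (86.8%, Wilson interval 79.9 to 91.6). In wild type it took 0 of 91, which allows up to 3.30%, and Fisher's exact test gave an adjusted p of 5.94e-44. TGTA began 1 base after the proximal site and occurred 3 times in the 30 bases printed above.

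In rsm10 (uS10m, chromosome II, 3870168 to 3872820, plus strand) the sites lay 983 and 1776 nt past the stop codon, the second of them at the annotated end. The distal site held 62 of 82 reads in nmt1-SEB1 (75.6%, 65.3 to 83.6) and 7 of 100 in wild type (7.0%, 3.43 to 13.7), with an adjusted exact p of 2.68e-22. AATAAA lay before the distal site, and AATAAA or AATGAA also lay in the 50 nt before the proximal one. When the pair was chosen on wild type alone, another pair was taken and the difference was -18.4 points without a call. In rsm23, whose sites lay 185 and 323 nt past the stop codon, the distal share was 98.8% (97.6 to 99.4) against 58.0% (50.6 to 65.0). Only 8 of its 652 reads in the pair remained at the proximal site in nmt1-SEB1, where 74 of 176 lay there in wild type.

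Of the large subunit, 3 members with 100 or more reads in each library were called. mrpl8 (bL17m) had sites 216 and 372 nt past the stop codon, and the distal one held 145 of 378 reads (38.4%, 33.6 to 43.4) against 0 of 240 (up to 1.25%). In nmt1-SEB1, 163 of its 470 reads past the stop codon were assigned to the lncRNA gene sme2-S, and with only its own reads the difference was 19.9 points and still called. mrpl22 (uL22m, whose bacterial counterpart lines the exit tunnel) had sites 52 and 112 nt past the stop codon and a distal share of 52.8% (47.2 to 58.2) against 18.4% (14.7 to 22.9). mrpl33 (uL30m), with sites 1 and 1045 nt past the stop codon, had 91.0% (86.7 to 94.0) against 79.0% (74.1 to 83.2), and lost the call when a difference of 20 points was asked.

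**Figure D3:**
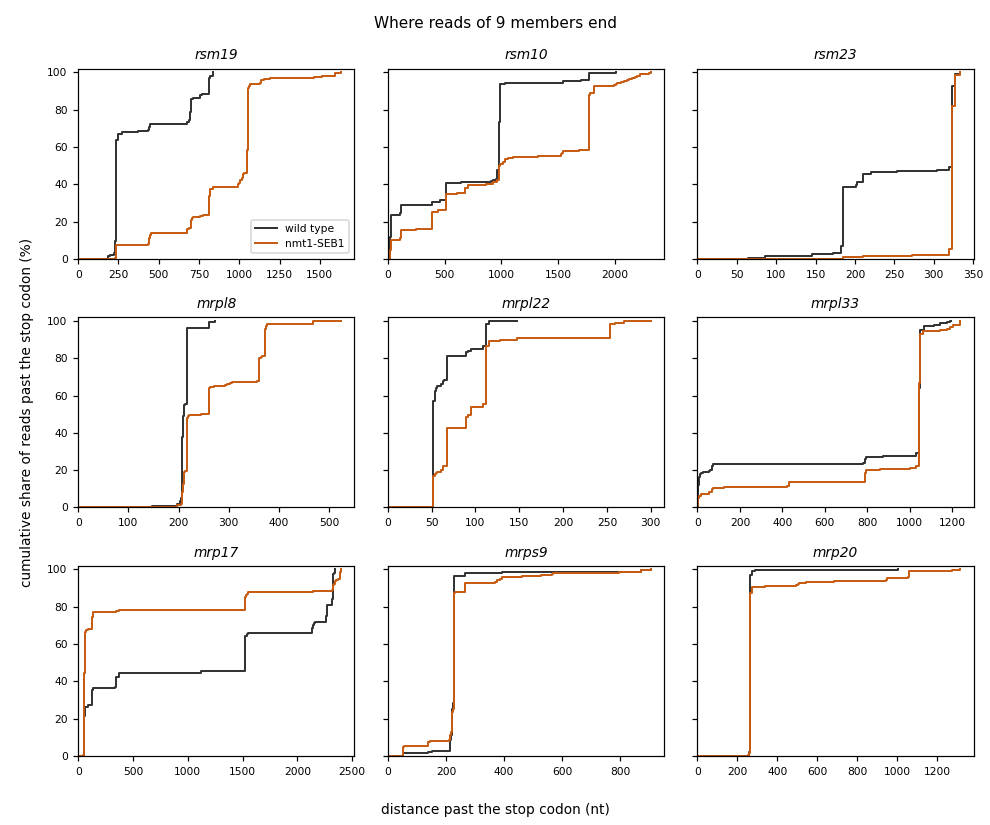
Cumulative share of the reads past the stop codon (y axis, percent) against their distance from it (x axis, nt) for 9 members, wild type in dark grey and nmt1-SEB1 in orange. The steps of rsm19 lie at 232 nt in wild type and at 1055 nt in nmt1-SEB1, mrp17 steps higher at 55 nt in nmt1-SEB1, and mrps9 and mrp20 step at 227 and 263 nt in both libraries.

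Several called members with fewer reads had larger differences, and the following were chosen after their values were seen. rsm27 (mS33) went from 0 of 46 reads at its distal site, 1717 nt past the stop codon, in wild type to 60 of 63 (95.2%) in nmt1-SEB1. rsm18 had 0 of 21 against 139 of 155 (89.7%). mrpl1 (uL1m, a protein of the mobile L1 stalk in bacteria) had 20% against 95.5%, mrps16 20.8% against 93.3%, mrp49 19.0% against 81.4% and mrp11 50% against 98.8%. With the pair chosen on wild type alone, rsm18 (6.79 points) and mrps16 (-12.0 points) were no longer called. In 6 of the 33 members tested the wild-type distal share was 0.

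The lower distal shares were all in small-subunit genes. In mrp17 the proximal site, 55 nt past the stop codon, held 413 reads in nmt1-SEB1 against 32 in wild type. The distal one, at 1523 nt, held 60 and 25. The distal share was thus 12.7% (9.98 to 16.0) against 43.9% (31.8 to 56.7), with an adjusted exact p of 1.78e-07, and both sites have AATAAA before them. Between the first and the last cluster of this gene the difference was 7.81 points in the other direction, without a call.

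mrp2, with sites 132 and 695 nt past the stop codon, had 29.6% (23.1 to 37.1) against 43.3% (37.7 to 49.0) and an adjusted exact p of 0.0067. mrps8 (uS8m), with sites 388 and 459 nt past the stop codon, had 12.1% (7.07 to 20) against 23.6% (18.0 to 30.3) and an adjusted exact p of 0.035. Both differences were small beside that of mrp17, and with clusters of 50 nt neither gene was called. Between its first and last cluster mrps8 had a higher distal share in nmt1-SEB1, by 10.9 points. Of the 19 large-subunit genes tested, 11 (57.9%) were higher and 0 lower. Of the 13 small-subunit genes, 6 (46.2%) were higher and 3 (23.1%) lower. Among coding genes 67.4% were higher and 3.98% lower. Whether the subunits differ was not tested.

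**Figure D4:**
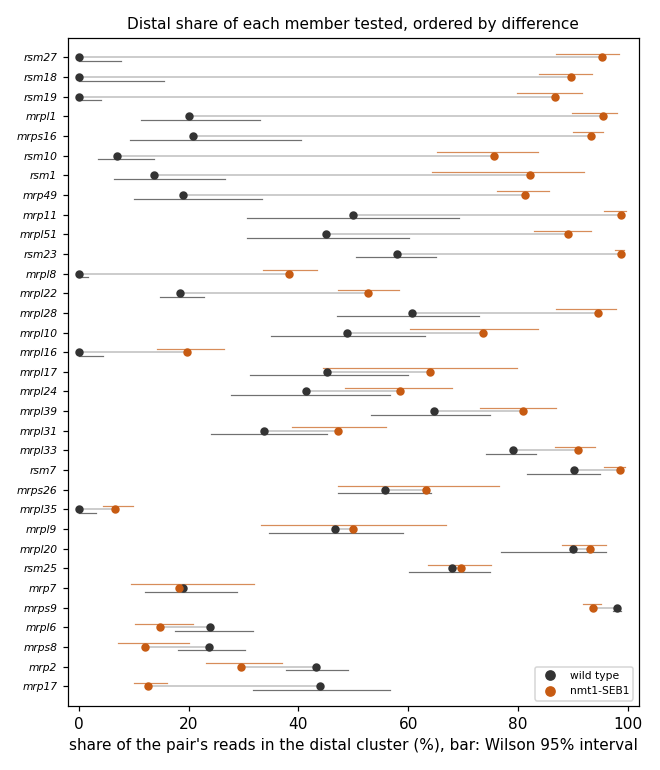
Distal share (x axis, percent of the reads of the pair) of the 33 members tested, wild type in dark grey and nmt1-SEB1 in orange with Wilson 95% intervals, ordered by the difference. The top row, rsm27, goes from 0 to 95.2%, the bottom row, mrp17, from 43.9 to 12.7%, and 6 members start at 0 in wild type.

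A set of members had 1 dominant site in both libraries. Of the 48 members with 20 or more reads past the stop codon in each library, 10 (20.8%) had no second cluster with 5% of the reads, where 343 of 3672 coding genes (9.34%) did not. They were mrp10, mrp20, mrp5, mrp51, mrpl12, mrpl19, mrpl3, mrpl38, mrps12 and rsm24, so 3 of the 5 most abundant members were among them. In mrpl19, 99.8% of the wild-type reads and 99.1% of the nmt1-SEB1 reads lay in the cluster 128 nt past the stop codon. In mrp20 the cluster at 263 nt held 99.5% and 90.6%, and in mrpl12 the cluster at 204 nt held 94.7% and 85.8%. For the most abundant member, mrps9, the distal site at 227 nt held 98.1% of the pair in wild type and 93.7% in nmt1-SEB1, a difference in the other direction that stayed under the 10 points required.

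The mean distance of the reads past the stop codon used all sites and had no test. Of the 48 members, 33 (68.8%) had a mean end at least 20 nt further downstream in nmt1-SEB1, where 74.3% of coding genes did. In the opposite direction 1 member (2.08%) was nearer the stop codon, where 2.83% of coding genes were. The median difference was 78.0 nt in the members and 65.9 nt in coding genes. By subunit, 22 of 26 large-subunit genes were further and 0 nearer, and 11 of 21 small-subunit genes were further and 1 nearer. With 100 reads in each library, 11 of 19 members were further, 1 was nearer and the median difference was 36.3 nt. At that depth 70.0% of coding genes were further, with a median of 53.6 nt, so the median of the members lay below that of coding genes and no longer above it.

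The range was wide. For mrpl20, 171 of 175 reads in the window in nmt1-SEB1 and 41 of 49 in the other library were assigned to the downstream gene SPCC1393.12, so its end values are not its own. It was kept among the 33 members tested for distal share and the 48 with a mean end and read-through. mrpl9 had a mean end of 1373 nt in nmt1-SEB1 against 191 nt in wild type. The pair of sites tested for it, at 66 and 209 nt, held only 30 of its 382 nmt1-SEB1 reads, so its distal share of 50% against 46.7% leaves out most of its reads, and its largest cluster in nmt1-SEB1 lay at 1556 nt. rsm27 followed with 1462 against 353 nt. In mrp17, the single member with a nearer mean end, it was 485 nt in nmt1-SEB1 against 1153 nt in wild type.

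The largest cluster was the same one in both libraries in 29 of the 48 members, lay further downstream in nmt1-SEB1 in 19 (39.6%) and lay nearer in 0. Over coding genes 38.5% lay further and 2.34% nearer. mrpl9, rsm19 and rsm10 belong to the 19, with largest clusters at 66, 232 and 983 nt in wild type. mrp17 kept its largest cluster at 55 nt, and its share of the reads past the stop codon was 67.6% in nmt1-SEB1 against 26.4% in wild type.

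Read-through is the share of reads past the stop codon that lay more than 200 nt past the main cluster. Summed over the members it was 13.9% (13.3 to 14.5) in nmt1-SEB1 against 4.51% (4.10 to 4.96) in wild type, and all coding genes together had 10.4% and 1.14%. These sums give genes with many reads more weight. As a mean over genes the members had 16.3% against 4.89%, and coding genes 17.2% against 3.53%. So the members lay above coding genes in nmt1-SEB1 in the sum but not in the mean. Read-through was higher in nmt1-SEB1 in 28 of the 48 members (58.3%) and lower in 3 (6.25%), and in the remaining members it was 0 in both. Of coding genes 63.9% were higher and 4.22% lower. Large-subunit genes together had 11.8% against 1.06%, and small-subunit genes 16.6% against 8.38%. mrp17 (63.6% in wild type), mrp2 (30.8%) and rsm19 (31.4%) give most of the wild-type share of the small subunit.

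The members with 100 or more reads per library that differed most were rsm19, rsm10, mrps26, mrpl6 and mrpl22. rsm19 had 217 of 235 reads in nmt1-SEB1 (92.3%, 88.2 to 95.1) against 44 of 140 (31.4%, 24.3 to 39.5). rsm10 had 45.5% (38.8 to 52.4) against 5.98% (3.37 to 10.4), and mrpl6 (uL6m) 17.0% (12.8 to 22.3) against 0.578% (0.102 to 3.20).

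mrps26 had 43.6% (38.3 to 49.2) against 6.81% (4.02 to 11.3), where 100 of its 314 nmt1-SEB1 reads past the stop codon were assigned to the lncRNA gene SPNCRNA.417. mrpl22 had 31 of 345 reads (8.99%, 6.40 to 12.5) against 0 of 348 (up to 0.862%). Among members with fewer reads, chosen after their values were seen, mrpl9 had 349 of 382 reads (91.4%) against 3 of 67 (4.48%), and mrps28 (uS15m) 64 of 90 (71.1%) against 0 of 44.

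**Figure D5:**
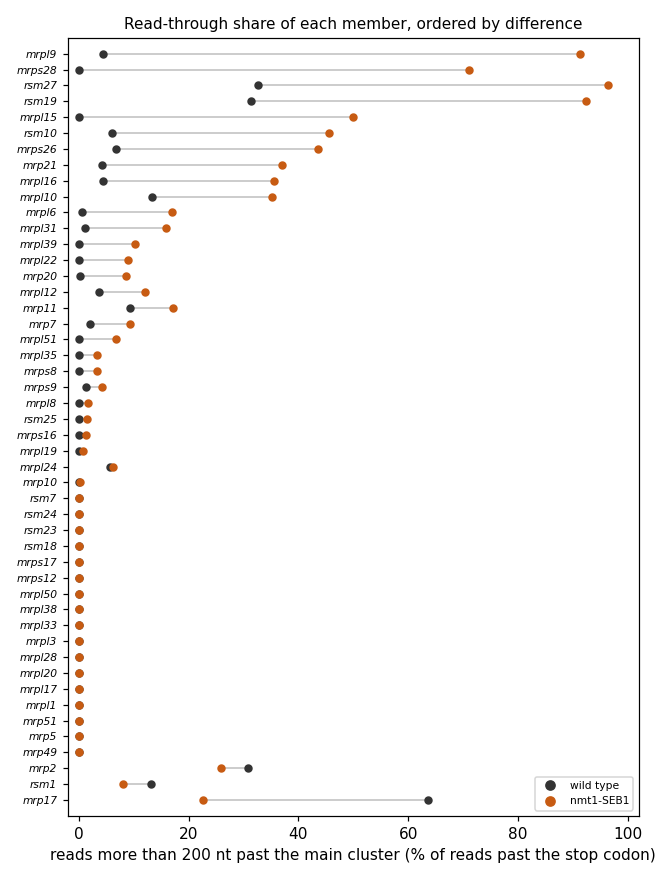
Read-through share of 48 members (x axis, percent of reads past the stop codon that lie more than 200 nt past the main cluster), wild type in dark grey and nmt1-SEB1 in orange, ordered by the difference. mrpl9 leads with 91.4 against 4.48%, the bottom row, mrp17, has 22.6 against 63.6%, and only mrp17, rsm1 and mrp2 are lower in nmt1-SEB1.

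Site use and abundance were set side by side. Of the 18 members with a higher distal share, 7 (38.9%) also passed the 2-fold rule upwards and 13 (72.2%) had a ratio interval wholly above 1. Of the other 15 tested, 4 (26.7%) and 7 (46.7%) did. In coding genes the shares were 22.3% and 41.0% with a higher distal share and 15.3% and 35.1% without, and these differences were not tested. rsm19, with one of the largest shifts, had 237 reads in nmt1-SEB1 against 140 in wild type, a ratio of 1.37 (1.11 to 1.70) that did not pass the rule. rsm10 had 203 and 186 reads, a ratio of 0.884 (0.721 to 1.08). mrpl19, with 1 site in both libraries, was higher, and mrp20, also with 1 main site, was lower. Over the 32 members with both values, Spearman's rho between the difference in distal share and the log2 ratio was 0.34 (Pearson's r 0.26), a description, since both rest on the same reads.

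The next coding gene downstream faces the member (convergent) in 37 cases and follows in the same direction (tandem) in 22. In abundance, 13 of 36 convergent members (36.1%) were higher and 1 (2.78%) lower, where 26.1% and 16.0% of convergent coding genes were. Of 20 tandem members, 6 (30%) were higher and 3 (15%) lower, where 25.9% and 18.1% of tandem coding genes were. In distal share, 12 of 21 convergent members (57.1%) were higher and 1 (4.76%) lower, where 67.2% and 3.50% of convergent coding genes were. Of 12 tandem members, 6 (50%) were higher and 2 (16.7%) lower, where 67.7% and 4.55% of tandem coding genes were. The difference between the arrangements was not tested. Reads on the opposite strand of the members summed to 2355 RPM in nmt1-SEB1 against 2387 in wild type, a ratio of 0.986 (0.954 to 1.02), where the same sum over other coding genes had a ratio of 1.58. mrp51 (2422 and 2515 reads) and rsm10 (758 and 1698) hold most of the members' wild-type reads of this kind, and without them the ratio was 1.70 (1.62 to 1.79). Reads that ended before the stop codon made up 5.05% (4.70 to 5.44) of the members' reads in nmt1-SEB1 against 2.11% (1.84 to 2.43) in wild type, and 4.04% and 2.44% in other coding genes. mrpl32, mrpl27 and mrps16 had most of their reads there in 1 library or both.

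Motifs near the sites were searched on the strand of the gene. TGTA was found in the 100 nt after the proximal site in 14 of the 18 members with a higher distal share (77.8%), in 4 of the 12 called in neither direction (33.3%) and in 1 member among the 3 whose share was lower. Over all coding genes tested the shares were 68.5%, 50.8% and 35.0%, and 62.1% in all, where all members tested together had 57.6%. After the distal site TGTA was found, in the same order, in 10 of 18, 7 of 12 and 3 of 3 members, or 60.6% in all. Coding genes had 56.5%, 60.9% and 67.5% there, and 58.2% in all. The shorter GTA, which every TGTA contains, lay after the proximal site in 18 of 18, 10 of 12 and 1 of 3 members, and in 88.8% of coding genes. AATAAA or AATGAA lay in the 50 nt before the proximal site in 12 of 33 members (36.4%) and 25.4% of coding genes, and before the distal site in 24.2% and 29.5%. All 3 members with a lower distal share had 1 of them before the proximal site. In the median the sites lay 230 nt apart in the 18 members with a higher distal share and 159 nt apart in the corresponding coding genes. The 100 nt after a proximal site can reach past the distal one, as in mrpl22. A match is a description of letters, and no test was made on it.

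Other genes of mitochondrial gene expression were set beside the members. Of the 20 genes with a mitoribosomal product under another symbol, 17 were tested for abundance. Of these, 5 (29.4%) were higher, where 26.0% of coding genes were, and 0 lower, where 17.0% were. Their median log2 ratio was 0.70, and under TMM scaling 1 was higher and 4 lower. In distal share 10 of 15 (66.7%) were higher, close to the 67.4% of coding genes, and 1 was lower. cox24 (mS38), also among the named genes of the next list, had a distal share of 89.4% (85.3 to 92.4) against 1.28% (0.227 to 6.91). This list of products was made from the annotation and shares 6 genes with the next one.

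Of 39 genes for translation factors, tRNA synthetases, RNA-binding and assembly factors and further ribosomal proteins, 38 were tested, with 11 higher and 4 lower. These made up 28.9% and 10.5%, where 26.0% of coding genes were higher and 17.0% lower. The median log2 ratio was 0.32, which was -0.34 under TMM scaling. Translation factors included both ends of the range. mef1 (mitochondrial elongation factor G) had 252 reads in nmt1-SEB1 against 11 in wild type, a ratio of 18.6 (10.2 to 37.7). In nmt1-SEB1, 95.6% of its reads past the stop codon lay in a cluster at 512 nt, beyond the annotated end at 204 nt. The largest wild-type cluster, at 95 nt, held 0.398% of them, so the ratio rests on reads past the annotated end. fmt1, which formylates the initiator methionyl-tRNA, had 55 and 1 reads, a ratio of 44.6 (7.67 to 1792). mti3, a translation initiation factor, had 56 and 278, a ratio of 0.163 (0.120 to 0.218).

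In distal share 18 of the 24 genes of this list tested (75%) were higher and 0 lower, with a median difference of 37.4 points. Over coding genes 67.4% were higher, with a median of 25.5 points. All 4 tRNA synthetase genes tested were higher. Of the genes for pentatricopeptide and RNA factors 7 of 10 (70%) were, close to the share of coding genes. The 24 include tsf1, whose window reads (193 and 117) were all assigned to other genes. msw1 (tryptophan tRNA synthetase) had 56 of 56 reads at its distal site against 0 of 20. Its sites lay 91 and 4317 nt past the stop codon, and the pair held 56 of 120 and 20 of 46 reads past it. mba1 (a respiratory complex assembly protein) had 68 of 68 against 1 of 20, with sites at 64 and 970 nt. Both distal sites lay beyond the annotated ends, at 4074 nt in msw1 and 236 nt in mba1. Like those of the members, these values compare reads of 2 libraries, and neither list was compared with the members by a test.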

How the data were processed

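The deposited values are unnormalized counts, 1 per position and strand, of the reads the authors took to support a poly(A) site, per the labels' protocols and the file contents. The authors' alignment used Bowtie2 and the build ASM294v2, per the submitters' processing notes, which give no version or filter. The RefSeq reference carries the name of a later release of that build. In both libraries 84.6 to 88.8% of positions with 5 or more reads hold an A and at most 1.57% are followed by one, on either strand, so positions were read as the 1-based last base on its nuclear coordinates. No position lay outside the chromosomes.

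Each read went to 1 gene: the same-strand gene that contains it (the nearest 3′ end where several do), or the gene that ends up to 1000 nt upstream of it. Genes of long non-coding RNA (lncRNA) took reads too. Clusters gathered positions within 24 nt of the peak, and each of the pair needed 5% of the reads in 1 library and 20 reads together in each. Ratio intervals are exact conditional binomial (Clopper-Pearson), share intervals Wilson, both at 95%, and a count of 0 allows up to 3 counts. No molecular identifiers are named, so they cover counting error only, and p-values measure only the difference between these 2 libraries' reads. All fits ran on all coding genes with Python 3.11.15, numpy 2.4.6 and scipy 1.17.1. TMM factors came from edgeR 4.0.16 in R 4.3.3, which was used for nothing else. The procedures were tested on simulated data.

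Named members are the 5 with the most wild-type reads, the 10 largest ratios in each direction and the 10 largest distal shares among called members with 100 or more reads, up to 5 with a lower distal share, the 5 largest differences in read-through, those under 20 reads and, in the other list, the 3 largest differences of either kind. The members and lists were chosen with earlier results of these data known. Of 49 symbols in the list of other mitochondrial genes, 6 were not found, and 4 (gtb1, par1, msd1 and msy1) were left out because their annotated products are other proteins. mrp1 is a non-coding RNA gene and no member. Alternatives varied scaling, read minimum, window, lncRNA annotation, clustering, pair choice, thresholds and depth.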

Additional observations from a re-analysis of the deposited data

Results flagged for a closer look

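One signal lay in data outside the comparisons. The contig MTR, listed in the files apart from the 3 chromosomes analysed, held 62 reads in nmt1-SEB1 against 18 in wild type, or 18.4 and 6.66 per 1000000 reads. It is not the contig MT, which held 6 and 8 reads. No gene on it was analysed, and the members lie elsewhere.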

How the results depend on the processing

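No paired analysis was possible because each group has 1 library. Scaling decided the sign of the median log2 ratio: it was -0.11 with 9 higher and 11 lower members under TMM, and -0.16 with 9 and 13 under median-of-ratios scaling, which move all ratios alike. With the window cut at 200 nt beyond the gene, 12 members were higher (22.6%, where 24.3% of coding genes were). With lncRNA annotations ignored the median was 0.85, 2 members were lower and read-through in nmt1-SEB1 was 16.2%, since those reads pass to the coding genes. A lower distal share was called in 1 member between first and last clusters and in 1 at 20 points. With 100 reads in the pair, 4 members (44.4%) were higher and 1 (11.1%) lower, where 70.3% and 3.02% of coding genes were. The members' median was then 6.58 points. With 100 reads for the mean end, 11 were further and the median was 36.3 nt, both among fewer genes tested, and it was 50.7 nt with a 500 nt window. Read-through was 18.4% against 6.06% beyond 100 nt, 21.9% against 5.88% past the main wild-type cluster and 13.05% in nmt1-SEB1 with only assigned reads, an alternative chosen after seeing the data, as was leaving out rsm1. Single genes changed sign: mrps16 (log2 ratio -0.083, 500 nt window), mrpl32 (-0.36 past the stop codon), mrps16 and rsm10 (distal difference -12.0 and -18.4 points on wild-type clusters), mrp17 and mrps8 (7.81 and 10.9 points, first and last cluster). Where no construction shows it, the cause was not tested. Of 264 log2 ratios of named genes under an alternative 227 kept direction and call, and of 168 distal differences 152. Depth limits most members: the median was 79 reads in wild type.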
